A study of Homo sapiens with 18 samples.

Results

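The genes described here are 44 of the amino acid response, chosen by symbol from a list of ATF4 targets, serine and folate enzymes and cytosolic aminoacyl-tRNA synthetases, out of 39368 genes in each deposited count table. They comprise 19 cytosolic aminoacyl-tRNA synthetases, 12 stress transcription factors and regulators, 7 enzymes of serine and one-carbon folate metabolism and 6 other enzymes of amino acid synthesis. All 44 were found in both tables, and 43 had enough counts to be tested. NUPR1, a small stress-induced chromatin protein, had at most 2 counts in any library and was not tested. RNA was sequenced from the established neuroblastoma cell lines BE2C and Kelly, both of human origin. Per the series title both carry an amplified MYCN oncogene, so every group shares it. In each line cells carried shAhR-1 or shAhR-2, short hairpin RNAs named for the aryl hydrocarbon receptor gene AHR, or the control vector pLKO-GFP. The 6 groups had 3 libraries each, 18 in all. Nothing in the labels tells if the libraries within a group were separate cultures, how long after infection RNA was taken, or where in AHR the hairpins bind. The p-values therefore measure the spread between libraries, which may be technical.

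When amino acids run short, uncharged tRNA activates the kinase GCN2, which phosphorylates the translation initiation factor eIF2 alpha. General translation falls while translation of the transcription factor ATF4 rises. ATF4 pairs with C/EBP proteins on a composite C/EBP-ATF response element and induces genes for amino acid synthesis, amino acid uptake, mitochondrial folate metabolism and tRNA charging. Aminoacyl-tRNA synthetases join amino acids to their tRNAs. In MYCN-amplified neuroblastoma, MYCN and ATF4 are both known regulators of serine and glycine synthesis genes.

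The core of the C/EBP-ATF response element was searched as TGATGNAA on both strands of the RefSeq promoter windows (GRCh38.p14), which run from 250 bases before to 50 bases after the start of transcription. Of the 44 genes, 34 had a window. The 9 with a match were AARS1, CARS1, IARS1, MARS1, NARS1, TARS1, ASNS, MTHFD1L and CHAC1, or 26.5% of the 34, against 3.67% of all 27305 promoters. If every listed window of a gene was taken, GARS1 and CEBPG were added and the shares were 32.4% and 4.46%. The 3 matching stretches printed here are those of genes with values in every library given below whose match lies wholly before the start. Capitals mark the match, or its reverse complement in CHAC1.

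ASNS: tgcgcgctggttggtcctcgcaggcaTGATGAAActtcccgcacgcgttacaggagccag
MTHFD1L: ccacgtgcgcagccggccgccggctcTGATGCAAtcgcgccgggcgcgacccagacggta
CHAC1: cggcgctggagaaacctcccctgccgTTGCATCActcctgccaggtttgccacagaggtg

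The ASNS stretch is chr7:97872443-97872502 on the minus strand, with the match 68 to 61 bases before the RefSeq start. MTHFD1L is shown at chr6:150866331-150866390 on the plus strand, with the match 129 to 122 bases before the start. The CHAC1 stretch is chr15:40953236-40953295 on the plus strand, with the match 209 to 202 bases before the start. In CARS1, IARS1, MARS1, NARS1 and TARS1 the match lay within 21 bases of the start, and in AARS1 187 to 180 bases before it. The E-box CACGTG, a sequence bound by MYC family proteins, was in 4 of the 34 windows (IARS1, ATF4, MTHFD1L and ALDH18A1), or 11.8%, against 7.43% of all promoters. The core of the xenobiotic response element bound by the aryl hydrocarbon receptor, searched as TNGCGTG on both strands, was in 1 of the 34 (STC2), or 2.94%, against 5.51% of all promoters. With every listed window of a gene it was in 4 (TARS1, ASNS, CEBPG and STC2), or 11.8% against 6.69%. Matches describe letters in these windows and are not evidence of binding.

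**Figure D1:**
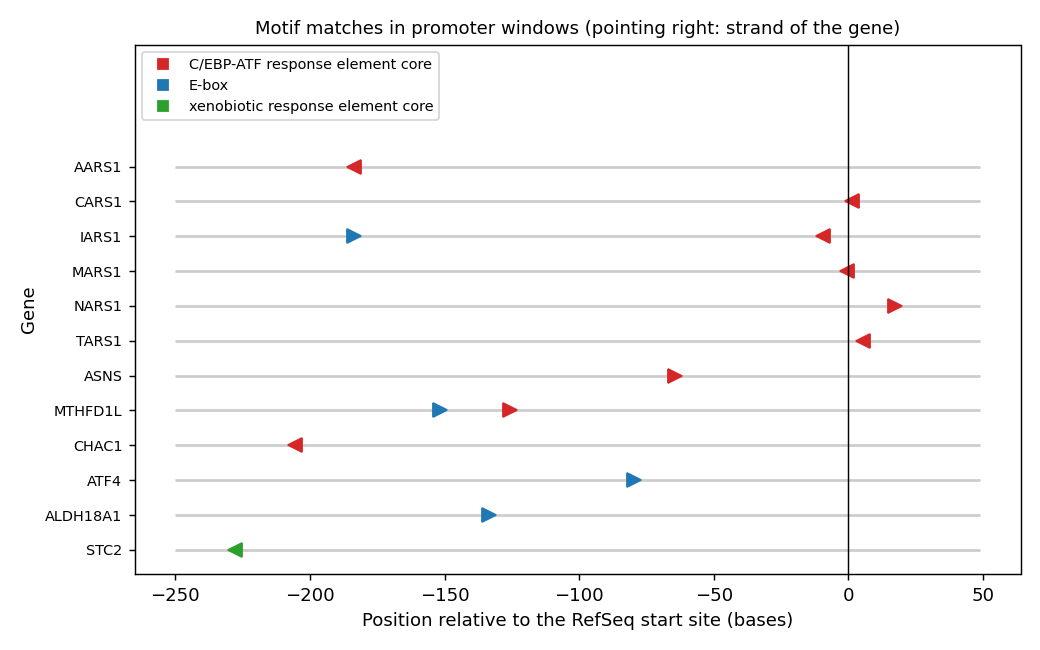
Matches to the C/EBP-ATF response element core, the E-box and the xenobiotic response element core in the promoter windows that hold any, by distance in bases from the RefSeq start site on the x axis, with genes on the y axis. Arrowheads pointing right are on the strand of the gene. The matches in CARS1, IARS1, MARS1, NARS1 and TARS1 sit close to the start site, and those in ASNS, MTHFD1L, AARS1 and CHAC1 sit before it.

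Libraries held 32799682 to 45469353 counts. AHR itself was scarce. In BE2C it had 8, 0 and 0 counts with shAhR-1, 0 in each of the 3 libraries with shAhR-2 and 4, 4 and 6 with pLKO-GFP. In Kelly it had 18, 11 and 22 counts in the libraries labelled shAhR-1, 0, 4 and 0 with shAhR-2 and 4, 26 and 29 with pLKO-GFP. The Kelly libraries labelled shAhR-1 thus lay within the range of their controls in AHR, and BE2C shAhR-1 library 1 lay above its controls. AHR had too few counts to be tested in BE2C. In Kelly it was called lower with shAhR-2 (log2 −3.84 ± 0.81, adjusted p = 3.41e-05 in edgeR), also without any 1 library, though shAhR-2 library 2 and pLKO-GFP library 1 had 4 counts each and the change was −7.30 without that shAhR-2 library. It was not called in the libraries labelled shAhR-1 (−0.10 ± 0.54). MYCN fell in all 4 contrasts against control, by edgeR at an adjusted p of at most 4.49e-11. It averaged 1842 CPM (library-size scaled counts) with shAhR-1, 1136 CPM with shAhR-2 and 2206 CPM with pLKO-GFP in BE2C, so its changes were −0.26 ± 0.024 and −0.96 ± 0.024. In Kelly it averaged 2423 CPM in the libraries labelled shAhR-1, 3146 CPM with shAhR-2 and 4814 CPM with pLKO-GFP, and its changes were −0.99 ± 0.026 and −0.61 ± 0.026. All 10 neuroblastoma markers, MYCN among them, reached a mean of at least 10 CPM in every group, but their level shifted with the hairpins. They summed to 4962 to 5018 CPM with shAhR-1, 2895 to 2923 with shAhR-2 and 5504 to 5667 with pLKO-GFP in BE2C, and to 5584 to 5711, 6333 to 6398 and 10310 to 11010 in the same order in Kelly. Of the 10, 9 fell and 1 rose with shAhR-2 in BE2C, and 8 fell and 2 rose in Kelly. With shAhR-1, 6 fell and 2 rose in each line. Of all genes tested, 37.2% fell and 38.0% rose with shAhR-2 in BE2C, and 38.2% and 37.2% in Kelly. The shares with shAhR-1 were 27.1% and 25.2% in BE2C, and 31.0% and 29.6% in Kelly. The 8 leukocyte markers summed to at most 1.38 CPM in any library. Markers of other cell types moved too. The 8 fibroblast markers summed to 102 to 107 CPM with shAhR-1, 175 to 188 with shAhR-2 and 93.73 to 98.04 with pLKO-GFP in BE2C, and to 53.7 to 62.3, 82.1 to 84.1 and 93.62 to 100.4 in the same order in Kelly. FAP was at 0 in 5 of the 6 groups and COL1A2 at 0 in both shAhR-2 groups. The 8 Schwann cell and glial markers summed to 13.35 to 13.99 CPM in BE2C and 12.04 to 12.35 CPM in Kelly with shAhR-2, against at most 5.9 CPM in the other groups, with FABP7 at 0 in 5 of the 6 groups. The 5 endothelial markers summed to 0.602 to 1.19 CPM with shAhR-1, 7.66 to 8.79 with shAhR-2 and 1.19 to 1.85 with pLKO-GFP in BE2C, and to 1.05 to 1.66, 5.2 to 5.74 and 2.79 to 3.64 in the same order in Kelly. Among them VWF averaged 7.02 CPM with shAhR-2 and 0.672 CPM with pLKO-GFP in BE2C, and 5.28 and 2.42 CPM in Kelly. Of the 2 endothelial markers tested in Kelly, VWF rose with shAhR-2 (log2 1.12) and KDR fell (−4.04). Of the 2 tested in BE2C, VWF rose (3.38) and CDH5 was not called (0.58). Mitochondrially encoded genes took 24.3% to 24.9% of counts with shAhR-1, 20.5% to 25.1% with shAhR-2 and 18.8% to 19.4% with pLKO-GFP in BE2C. In Kelly they took 17.4% to 17.7%, 15.2% to 15.8% and 14.5% to 15.6%. The part of MYCN and of the marker shifts in the results was not tested. BE2C shAhR-2 library 1 stood apart from the other 2 of its group, with a chi-square per degree of freedom of 20.9 to 22.8 against 2.81 to 6.59 for all other pairs within groups.

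In BE2C the genes fell together with shAhR-2, while with shAhR-1 more of them rose than fell. With shAhR-2, 42 of the 43 tested genes fell and 1 rose, where 75.1% of all 15732 genes tested were called, 37.2% falling and 38.0% rising. The median log2 fold change was −0.86 for the 43 genes and 0.03 for all genes. The 42 also fell without library 1, and with mitochondrially encoded genes left out. Under several other alternatives, given with the synthetases below, the call of WARS1 was lost (−0.09 with DESeq2). With shAhR-1, 23 rose, 10 fell and 10 were not called. Of all genes 52.3% were called, as 25.2% rose and 27.1% fell, and the medians were 0.15 for the 43 genes and 0.01 for all. Of the 43, 22 rose with shAhR-1 and fell with shAhR-2, a pattern held by 6.21% of all genes, and none did the reverse (6.37% of all genes). Among the 22, CBS, DDIT3, IARS1, SESN2 and WARS1 each lost a call under at least 1 alternative. The 10 that fell with both hairpins compare with 17.4% of all genes, and the share of fallers with shAhR-1 was likewise near that of all genes. Calls here and below are edgeR quasi-likelihood tests at a Benjamini-Hochberg adjusted p below 0.05, and fold changes are log2 values ± SE. Contrasts within a line share their 3 pLKO-GFP libraries. In bulk libraries, fewer cells of a type and less RNA per cell cannot be told apart.

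In Kelly most of the genes were lower with either hairpin. With shAhR-2, 31 of 43 fell, 7 rose and 5 were not called, where 75.4% of all 15871 genes tested were called, 38.2% falling and 37.2% rising, with medians of −0.43 and −0.01. In the libraries labelled shAhR-1, 26 fell, 13 rose and 4 were not called, where 60.5% of all genes were called, 31.0% falling and 29.6% rising, with medians of −0.19 and 0.00. Of the 43, 20 fell with both hairpins (14.3% of all genes). Another 8 rose with shAhR-1 and fell with shAhR-2 (10.9% of all genes), and 4 did the reverse (11.5%). Calls lost under at least 1 alternative were those of ALDH1L2, CEBPG, PSPH and WARS1 among the 20. Among the 8 they were those of MARS1 and PSAT1, and among the 4 those of TRIB3 and STC2. Over both lines, 31 genes fell with shAhR-2 (28.0% of 14680 genes tested in both), and 9 fell in all 4 contrasts against control (8.88%). For 3 of the 9 (CEBPG, FARSB and YARS1), 1 of the 4 calls did not survive leaving out single libraries. The only gene of the 43 called higher with shAhR-2 in both lines (25.0% of all genes), and in all 4 contrasts (6.34%), was VLDLR, the very low density lipoprotein receptor, an ATF4 target in other cells.

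**Figure D2:**
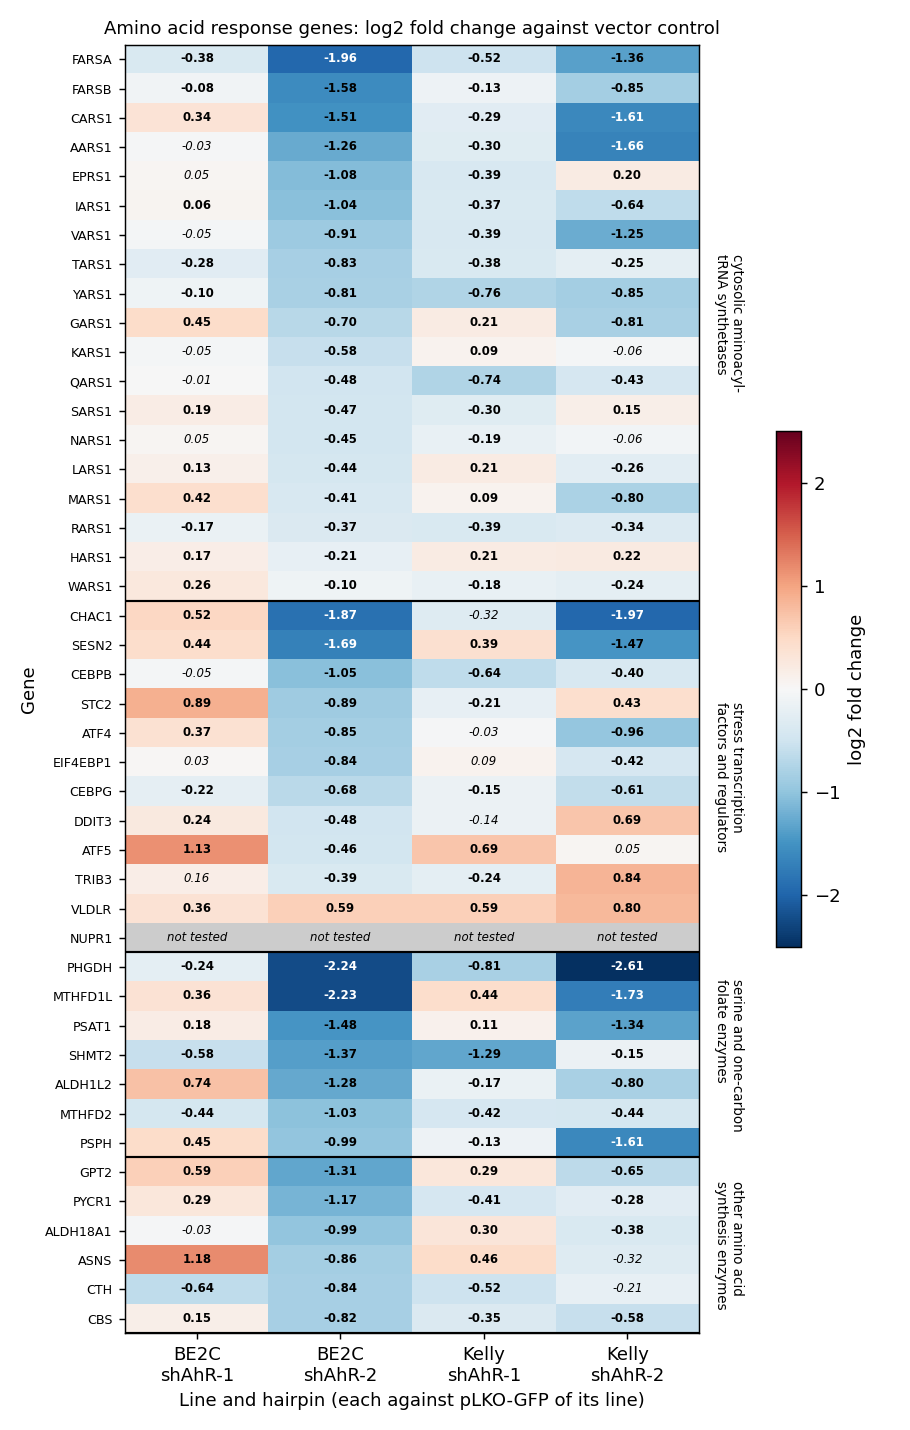
Log2 fold change of each of the 44 genes (rows, grouped by role) against the pLKO-GFP libraries of the same line, for shAhR-1 and shAhR-2 in BE2C and Kelly (columns). Bold values were called and italic ones were not, and NUPR1 was not tested. The BE2C shAhR-2 column is blue in every tested row but VLDLR, while the BE2C shAhR-1 column is mostly pale or red.

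Of the 11 tested stress factors and regulators, 10 fell and 1 rose with shAhR-2 in BE2C (median −0.84), and 6 fell and 4 rose in Kelly (−0.40). With shAhR-1, 1 fell and 7 rose in BE2C (0.36), and 4 fell and 3 rose in Kelly (−0.14). Of all genes, 37.2% fell and 38.0% rose with shAhR-2 in BE2C, and 38.2% and 37.2% in Kelly. With shAhR-1, 27.1% fell and 25.2% rose in BE2C, and 31.0% and 29.6% in Kelly. The Kelly shares that rose with either hairpin or fell with shAhR-1 were near these. Among them, ATF4 RNA moved with hairpin and line. ATF4 (chromosome 22, 39519695 to 39522685, plus strand, GRCh38) had 366, 373 and 357 CPM with shAhR-1, 157, 162 and 151 CPM with shAhR-2 and 293, 276 and 277 CPM with pLKO-GFP in BE2C. All shAhR-1 libraries lay above the controls (0.37 ± 0.032, adjusted p = 7.31e-12) and all shAhR-2 libraries below them (−0.85 ± 0.033, adjusted p = 1.20e-21). In Kelly it had 331, 339 and 356 CPM in the libraries labelled shAhR-1, 178, 179 and 179.6 CPM with shAhR-2 and 352, 346 and 347 CPM with pLKO-GFP. Here too the shAhR-2 libraries lay below the controls (−0.96 ± 0.029, adjusted p = 1.29e-33), and the libraries labelled shAhR-1 overlapped the controls (−0.03 ± 0.028, adjusted p = 0.458). ATF4 is regulated chiefly by translation, which these RNA counts do not measure.

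ATF5, a relative of ATF4 that is also translated under stress, was low but changed more with shAhR-1 than any other regulator in BE2C. It had 13.4, 13.8 and 11.7 CPM with shAhR-1, 5.199, 4.16 and 3.58 CPM with shAhR-2 and 6.12, 5.52 and 6.09 CPM with pLKO-GFP there, with no overlap between the groups (1.13 ± 0.12 with shAhR-1 and −0.46 ± 0.13 with shAhR-2). In Kelly it had 6.07, 5.97 and 6.01 CPM in the libraries labelled shAhR-1, 4.396, 3.82 and 3.41 CPM with shAhR-2 and 3.75, 3.54 and 3.88 CPM with pLKO-GFP. The libraries labelled shAhR-1 all lay above the controls (0.69 ± 0.14), while those of shAhR-2 overlapped them (0.05 ± 0.14, not called). Reads of ATF5 are uncertain, since 21.2% of its exonic bases overlap genes on the other strand and the strand setting of the counting is not given in the sources used here.

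CEBPG, a partner of ATF4 on the composite element, was 1 of the 9 genes lower in all 4 contrasts. It had 109, 116 and 109.7 CPM with shAhR-1, 83.97, 79.1 and 80.8 CPM with shAhR-2 and 126, 129.9 and 134 CPM with pLKO-GFP in BE2C and 56.3, 52.6 and 58.4 CPM in the libraries labelled shAhR-1, 39.3, 39.9 and 42.1 CPM with shAhR-2 and 62.7, 62.3 and 60.1 CPM with pLKO-GFP in Kelly. Each set of hairpin libraries lay below its controls, with log2 changes of −0.22 ± 0.038 and −0.68 ± 0.038 for shAhR-1 and shAhR-2 in BE2C and −0.15 ± 0.046 and −0.61 ± 0.046 in Kelly. Without Kelly library 2 labelled shAhR-1, the CEBPG change there was −0.11 and not called. CEBPB, another C/EBP factor induced by stress, fell with shAhR-2 in BE2C (−1.05) and with both in Kelly (−0.64 for shAhR-1 and −0.40 for shAhR-2), and was not called with shAhR-1 in BE2C (−0.05). An antisense gene covers 11.8% of its exonic bases.

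DDIT3, which encodes the proapoptotic factor CHOP, and TRIB3, a pseudokinase that CHOP and ATF4 induce and that restrains ATF4, split the lines with shAhR-2. TRIB3 had 22.6, 23.4 and 20.6 CPM with shAhR-1, 13.98, 15.6 and 15.9 CPM with shAhR-2 and 20.02, 20.6 and 18.7 CPM with pLKO-GFP in BE2C and 12.5, 12.2 and 12.5 CPM in the libraries labelled shAhR-1, 26.9, 26.2 and 25.998 CPM with shAhR-2 and 15.7, 15.3 and 12.97 CPM with pLKO-GFP in Kelly. With shAhR-2 it fell in BE2C (−0.39 ± 0.076) and rose in Kelly (0.84 ± 0.072), in each case with no overlap. DDIT3 had 24.03, 20.1 and 21.2 CPM with shAhR-1, 13.1, 12.8 and 13.9 CPM with shAhR-2 and 19.3, 18.4 and 17.6 CPM with pLKO-GFP in BE2C and 3.79, 3.41 and 3.67 CPM in the libraries labelled shAhR-1, 7.09, 5.12 and 7.15 CPM with shAhR-2 and 4.77, 3.296 and 3.88 CPM with pLKO-GFP in Kelly. It likewise fell with shAhR-2 in BE2C (−0.48 ± 0.079) and rose in Kelly (0.69 ± 0.14), where the counts are low. MARS1 and MBD6, on the opposite strand, cover 31.6% of the exonic bases of DDIT3.

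STC2, a secreted glycoprotein induced by ATF4, showed the same split. It had 37.02, 38.8 and 35.6 CPM with shAhR-1, 8.71, 11.5 and 12.2 CPM with shAhR-2 and 19.5, 21.9 and 18.8 CPM with pLKO-GFP in BE2C, with all 9 libraries in separate group ranges (0.89 ± 0.082 with shAhR-1 and −0.89 ± 0.089 with shAhR-2). In Kelly it had 9.65, 8.81 and 9.76 CPM in the libraries labelled shAhR-1, 14.4, 14.1 and 15.3 CPM with shAhR-2 and 10.5, 10.7 and 11.5 CPM with pLKO-GFP. There it rose with shAhR-2 (0.43 ± 0.085) and was slightly lower in the libraries labelled shAhR-1 (−0.21 ± 0.090). That last call was lost without Kelly pLKO-GFP library 2 (−0.22) or 3 (−0.17), or without library 2 labelled shAhR-1 (−0.17). It was also lost with no filter beyond a total count above 0 (−0.22), with only the groups compared in the fit (−0.21) and with DESeq2 (−0.21).

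CHAC1 and SESN2 fell with shAhR-2 in both lines. CHAC1, an enzyme that breaks down glutathione and is induced through ATF4, had 7.63, 8.19 and 8.23 CPM with shAhR-1, 1.94, 1.54 and 1.12 CPM with shAhR-2 and 6.65, 5.78 and 4.29 CPM with pLKO-GFP in BE2C and 6.04, 3.62 and 4.92 CPM in the libraries labelled shAhR-1, 1.35, 1.56 and 1.704 CPM with shAhR-2 and 7.099, 5.12 and 5.87 CPM with pLKO-GFP in Kelly. The shAhR-2 libraries lay far below the controls in BE2C (−1.87 ± 0.18) and in Kelly (−1.97 ± 0.17), and shAhR-1 raised it in BE2C (0.52 ± 0.15) with no overlap. SESN2, a leucine sensor that inhibits mTORC1, had 4.36, 5.44 and 4.13 CPM with shAhR-1, 1.003, 1.17 and 0.989 CPM with shAhR-2 and 3.42, 3.85 and 2.96 CPM with pLKO-GFP in BE2C and 8.35, 8.97 and 9.88 CPM in the libraries labelled shAhR-1, 2.55, 1.99 and 2.92 CPM with shAhR-2 and 6.15, 7.38 and 7.23 CPM with pLKO-GFP in Kelly. It rose with shAhR-1 (0.44 ± 0.17 in BE2C and 0.39 ± 0.12 in Kelly) and fell with shAhR-2 (−1.69 ± 0.20 and −1.47 ± 0.14). Its rise in BE2C was not called without pLKO-GFP library 1 (0.44) or 3 (0.35), or without shAhR-1 library 2 (0.305). DESeq2 did not call that rise either (0.44).

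VLDLR stood apart in rising in all 4 contrasts. It had 25.7, 24.6 and 20.7 CPM with shAhR-1, 29.96, 26.9 and 26.3 CPM with shAhR-2 and 17.6, 17.6 and 20.2 CPM with pLKO-GFP in BE2C and 18.03, 21.4 and 19.7 CPM in the libraries labelled shAhR-1, 22.2, 23.4 and 23.1 CPM with shAhR-2 and 12.3, 13.996 and 13.1 CPM with pLKO-GFP in Kelly. All hairpin libraries lay above the controls of their line, by 0.36 ± 0.079 with shAhR-1 and 0.59 ± 0.078 with shAhR-2 in BE2C and by 0.59 ± 0.076 and 0.80 ± 0.074 in Kelly. EIF4EBP1, the translation repressor 4E-BP1, fell with shAhR-2 (−0.84 in BE2C and −0.42 in Kelly), but shAhR-1 gave no call (0.03 and 0.09). Its Kelly shAhR-1 change was called without Kelly pLKO-GFP library 1 (0.12) or with a mean CPM of at least 1 (0.10).

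**Figure D3:**
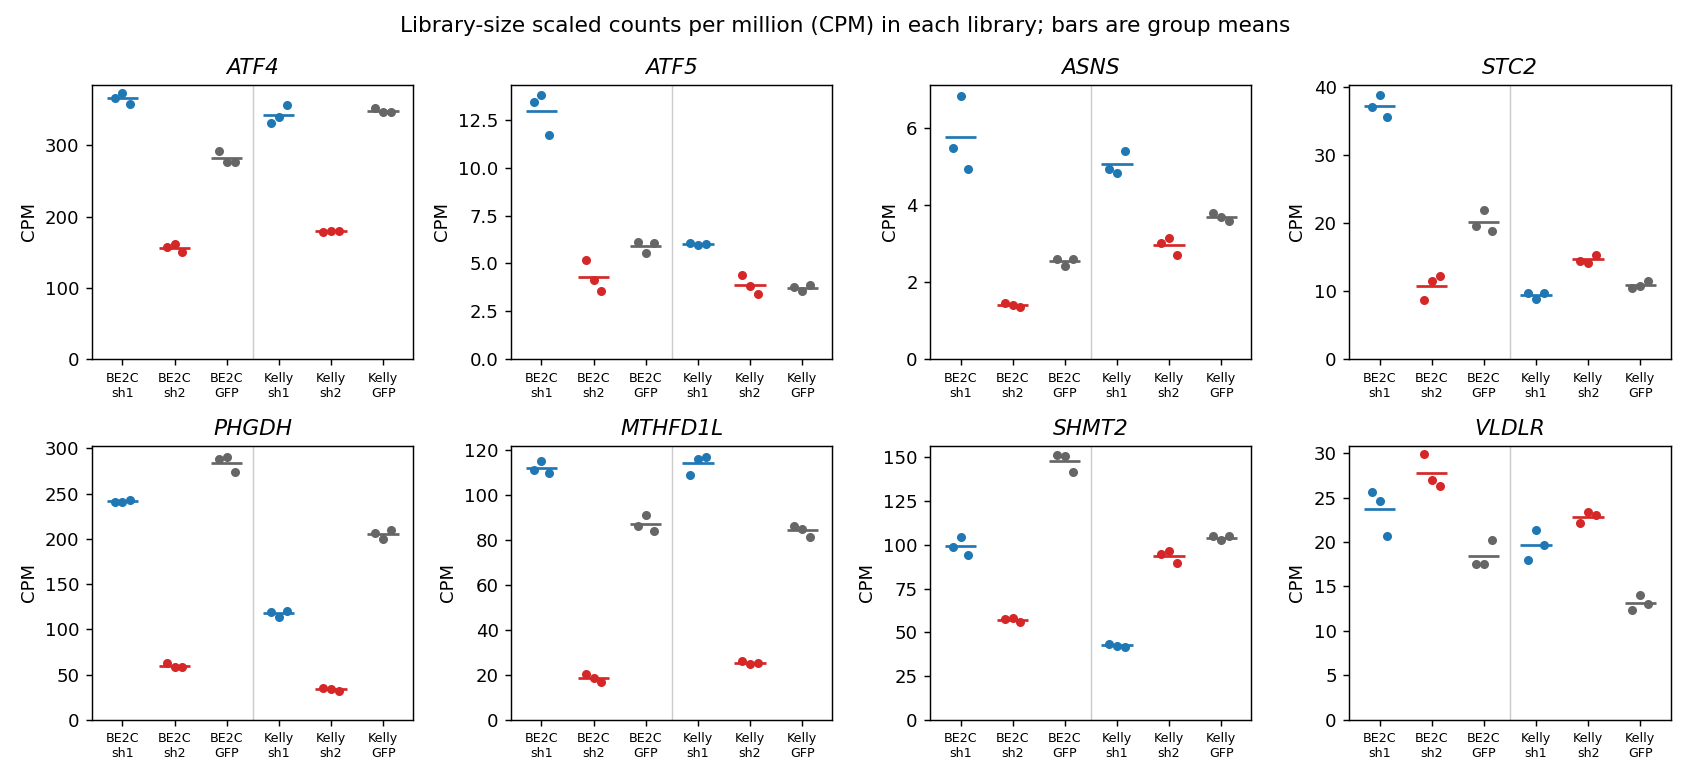
CPM, counts scaled by TMM library size, in each library (points) and as group means (bars) for ATF4, ATF5, ASNS, STC2, PHGDH, MTHFD1L, SHMT2 and VLDLR, in the order shAhR-1 (sh1), shAhR-2 (sh2) and pLKO-GFP (GFP) within each line. PHGDH and MTHFD1L with shAhR-2 sit far below their controls in both lines, while VLDLR sits above them. Each panel starts at 0 and has its own scale.

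The serine and one-carbon enzymes fell furthest with shAhR-2. All 7 fell with it in both lines, with medians of −1.37 in BE2C and −1.34 in Kelly. With shAhR-1, 4 rose and 3 fell in BE2C, and 2 rose and 5 fell in Kelly. Of all genes, 37.2% fell with shAhR-2 in BE2C and 38.2% in Kelly. With shAhR-1, 25.2% of all genes rose and 27.1% fell in BE2C, and 29.6% rose and 31.0% fell in Kelly. The share of these enzymes that rose in Kelly with shAhR-1 was near that of all genes.

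PHGDH (chromosome 1, 119648411 to 119744226, plus strand), the first enzyme of serine synthesis from glycolysis, had the largest fall with shAhR-2 of all 43 genes in both lines. It had 241, 241 and 243 CPM with shAhR-1, 62.8, 58.4 and 58.7 CPM with shAhR-2 and 289, 290.2 and 274 CPM with pLKO-GFP in BE2C and 119, 114 and 119.9 CPM in the libraries labelled shAhR-1, 34.97, 33.8 and 32.4 CPM with shAhR-2 and 207, 200.4 and 210.1 CPM with pLKO-GFP in Kelly. The shAhR-2 change was −2.24 ± 0.035 in BE2C (adjusted p = 4.65e-32) and −2.61 ± 0.038 in Kelly (adjusted p = 1.30e-47). The shAhR-1 change was −0.24 ± 0.033 in BE2C and −0.81 ± 0.034 in Kelly. PSAT1 and PSPH encode the next steps to serine. With shAhR-2 PSAT1 averaged 86.1 ± 2.56 CPM in BE2C, against 241 ± 3.02 CPM with pLKO-GFP (SD, n = 3 each). PSAT1 changed by −1.48 ± 0.033 in BE2C and −1.34 ± 0.045 in Kelly, and PSPH by −0.99 ± 0.054 and −1.61 ± 0.061. With shAhR-1 both rose in BE2C (0.18 for PSAT1 and 0.45 for PSPH).

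MTHFD1L, the mitochondrial enzyme that releases formate, moved in opposite directions with the 2 hairpins in both lines. It had 111, 115 and 109.7 CPM with shAhR-1, 20.4, 18.4 and 16.9 CPM with shAhR-2 and 86.1, 91.4 and 83.8 CPM with pLKO-GFP in BE2C and 109, 116 and 117 CPM in the libraries labelled shAhR-1, 26.3, 24.6 and 25.3 CPM with shAhR-2 and 86.4, 85.1 and 81.5 CPM with pLKO-GFP in Kelly. The change was −2.23 ± 0.053 in BE2C and −1.73 ± 0.044 in Kelly with shAhR-2, against 0.36 ± 0.046 and 0.44 ± 0.039 with shAhR-1. No library of 1 group overlapped another group in its line.

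SHMT2, which converts serine to glycine in mitochondria, differed from the others in order. It had 98.97, 105 and 94.1 CPM with shAhR-1, 57.6, 58.4 and 55.8 CPM with shAhR-2 and 151, 151 and 142 CPM with pLKO-GFP in BE2C and 43.4, 42.2 and 41.9 CPM in the libraries labelled shAhR-1, 94.9, 96.4 and 89.7 CPM with shAhR-2 and 105, 103 and 105 CPM with pLKO-GFP in Kelly. In BE2C shAhR-2 gave the lower level (−1.37 ± 0.042, against −0.58 ± 0.040 with shAhR-1). In Kelly the libraries labelled shAhR-1 were the lowest (−1.29 ± 0.040), and shAhR-2 changed it little (−0.15 ± 0.037). MTHFD2, the mitochondrial dehydrogenase that follows it, had 125, 132 and 122 CPM with shAhR-1, 86.3, 82.2 and 82.7 CPM with shAhR-2 and 173, 173 and 169 CPM with pLKO-GFP in BE2C and 163, 161 and 169 CPM in the libraries labelled shAhR-1, 155, 161 and 169.6 CPM with shAhR-2 and 220.2, 221 and 217 CPM with pLKO-GFP in Kelly. It fell in all 4 contrasts (−0.44 ± 0.036 and −1.03 ± 0.037 in BE2C with shAhR-1 and shAhR-2, −0.42 ± 0.032 and −0.44 ± 0.032 in Kelly). SLC4A5 on the other strand overlaps 27.2% of its exonic bases. ALDH1L2, which oxidises mitochondrial formyl-folate, had 173, 169 and 162 CPM with shAhR-1, 41.7, 41.6 and 41.4 CPM with shAhR-2 and 98.8, 104 and 100.3 CPM with pLKO-GFP in BE2C and 34.4, 33.5 and 36.7 CPM in the libraries labelled shAhR-1, 20.3, 24.2 and 22.7 CPM with shAhR-2 and 40.6, 36.3 and 40.5 CPM with pLKO-GFP in Kelly. It rose with shAhR-1 in BE2C (0.74 ± 0.037) and fell with shAhR-2 (−1.28 ± 0.039), and in Kelly it fell with both (−0.17 ± 0.060 and −0.80 ± 0.061). Its Kelly shAhR-1 call was lost, at −0.14 each time, without pLKO-GFP library 1 or 3 or library 2 labelled shAhR-1.

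All 6 other enzymes of amino acid synthesis fell with shAhR-2 in BE2C (median −0.92) and 4 of them in Kelly (median −0.35). With shAhR-1, 4 rose and 1 fell in BE2C, and 3 rose and 3 fell in Kelly. Of all genes, 37.2% fell with shAhR-2 in BE2C and 38.2% in Kelly. With shAhR-1, 25.2% of all genes rose and 27.1% fell in BE2C, and 29.6% rose and 31.0% fell in Kelly. ASNS, asparagine synthetase and the classic amino acid response target, had 5.496, 6.85 and 4.95 CPM with shAhR-1, 1.46, 1.39 and 1.35 CPM with shAhR-2 and 2.597, 2.43 and 2.59 CPM with pLKO-GFP in BE2C, the largest rise of the 43 genes with shAhR-1 (1.18 ± 0.17, and −0.86 ± 0.19 with shAhR-2). In Kelly it had 4.95, 4.84 and 5.41 CPM in the libraries labelled shAhR-1, 3.02, 3.15 and 2.699 CPM with shAhR-2 and 3.798, 3.69 and 3.59 CPM with pLKO-GFP, higher in the libraries labelled shAhR-1 (0.46 ± 0.14) and not called with shAhR-2 (−0.32 ± 0.15, adjusted p = 0.0506). Without any 1 of the Kelly libraries labelled shAhR-1 (−0.33), or without shAhR-2 library 2 (−0.37), ASNS was called with shAhR-2 in Kelly. It was also called there without mitochondrially encoded genes (−0.32). Its counts were low, at 64 in each BE2C shAhR-2 library, and its pseudogene ASNSP1 also took reads. Pseudogene counts in BE2C were 75, 91 and 59 in controls, 200, 186 and 139 under shAhR-1 and 12, 19 and 15 under shAhR-2. In Kelly they ran 110 to 160, 96 to 126 and 33 to 50 in the same order. ASNS had 102 to 107, 204 to 262 and 64 in BE2C and 135 to 168, 167 to 217 and 121 to 133 in Kelly. The Kelly pseudogene counts thus overlapped controls in the libraries labelled shAhR-1, where ASNS was higher. They lay below controls under shAhR-2, where ASNS was not called. The split of reads between gene and pseudogene is uncertain, so the ASNS changes in both lines carry this limit. Pseudogenes are also named for other genes described here, among them ATF4, PSAT1, MTHFD2 and KARS1, and their counts were not examined.

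GPT2, the mitochondrial alanine transaminase, rose with shAhR-1 and fell with shAhR-2 in both lines. It had 81.2, 81.9 and 82.03 CPM with shAhR-1, 20.6, 23.6 and 21.4 CPM with shAhR-2 and 58.4, 51.3 and 52.6 CPM with pLKO-GFP in BE2C (0.59 ± 0.051 and −1.31 ± 0.056). In Kelly it had 52.4, 50.8 and 50.1 CPM in the libraries labelled shAhR-1, 28.02, 26.9 and 25.3 CPM with shAhR-2 and 42.3, 40.98 and 42.5 CPM with pLKO-GFP (0.29 ± 0.050 and −0.65 ± 0.052). ALDH18A1 and PYCR1 act in proline synthesis. ALDH18A1 had 196, 197 and 197 CPM with shAhR-1, 100.5, 102 and 101 CPM with shAhR-2 and 202, 208 and 193 CPM with pLKO-GFP in BE2C and 185, 197 and 196 CPM in the libraries labelled shAhR-1, 122, 119 and 119 CPM with shAhR-2 and 159, 155 and 155 CPM with pLKO-GFP in Kelly. It fell with shAhR-2 in both lines (−0.99 ± 0.034 and −0.38 ± 0.032), was not called with shAhR-1 in BE2C (−0.03 ± 0.033) and was higher in the Kelly libraries labelled shAhR-1 (0.30 ± 0.032). PYCR1, of which 14.1% of exonic bases are shared with MYADML2, fell with shAhR-2 in BE2C (−1.17 ± 0.047) and Kelly (−0.28 ± 0.044).

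CTH and CBS, enzymes that make cysteine from homocysteine, were less uniform. CTH had 4.97, 3.53 and 3.69 CPM with shAhR-1, 3.28, 3.18 and 4.21 CPM with shAhR-2 and 6.02, 6.87 and 6.19 CPM with pLKO-GFP in BE2C and 4.26, 6.43 and 5.71 CPM in the libraries labelled shAhR-1, 7.02, 5.31 and 8.03 CPM with shAhR-2 and 8.61, 7.63 and 7.31 CPM with pLKO-GFP in Kelly. It was lower with both hairpins in BE2C (−0.64 ± 0.15 and −0.84 ± 0.15) and in the Kelly libraries labelled shAhR-1 (−0.52 ± 0.13), and not called with shAhR-2 in Kelly (−0.21 ± 0.13), where it was called without shAhR-2 library 3 (−0.35). CBS, which has a near-identical copy CBSL among which reads may split, fell with shAhR-2 in both lines (−0.82 in BE2C and −0.58 in Kelly).

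The synthetases fell with shAhR-2 in BE2C without exception, 19 of 19 with a median of −0.70, and 14 of 19 fell in Kelly with a median of −0.43. With shAhR-1, 8 rose and 5 fell in BE2C (median 0.05), and 5 rose and 14 fell in Kelly (median −0.30). Of all genes, 37.2% fell with shAhR-2 in BE2C and 38.2% in Kelly. With shAhR-1, 25.2% of all genes rose and 27.1% fell in BE2C, and 29.6% rose and 31.0% fell in Kelly. The shares of synthetases that fell in BE2C and rose in Kelly with shAhR-1 were near those of all genes. The BE2C shAhR-2 falls ran from −0.10 for WARS1 to −1.96 for FARSA. The WARS1 call was lost without any 1 of the BE2C pLKO-GFP libraries or without shAhR-2 library 2 or 3 (−0.12 to −0.07). It was also lost with RLE size factors (−0.09), a mean CPM of at least 1 (−0.05), halved counts (−0.09) and DESeq2 (−0.09). The 5 synthetases among the 9 genes lower in all 4 contrasts were FARSA, FARSB, YARS1, TARS1 and RARS1.

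FARSA and FARSB encode the 2 subunits of the phenylalanyl enzyme. FARSA had 116, 118 and 114 CPM with shAhR-1, 38.2, 38.3 and 39.4 CPM with shAhR-2 and 155, 154 and 144 CPM with pLKO-GFP in BE2C and 59.9, 61.5 and 56.8 CPM in the libraries labelled shAhR-1, 31.9, 31.8 and 36.1 CPM with shAhR-2 and 87.5, 80.6 and 87.6 CPM with pLKO-GFP in Kelly. Both hairpins lowered it (−0.38 ± 0.037 and −1.96 ± 0.040 in BE2C, −0.52 ± 0.046 and −1.36 ± 0.048 in Kelly). FARSB had 254, 245 and 257 CPM with shAhR-1, 93.2, 87.9 and 87.003 CPM with shAhR-2 and 267, 262 and 271 CPM with pLKO-GFP in BE2C and 168, 166 and 175 CPM in the libraries labelled shAhR-1, 106, 100.5 and 102 CPM with shAhR-2 and 189, 185 and 183 CPM with pLKO-GFP in Kelly. Its fall was small with shAhR-1 (−0.08 ± 0.032 in BE2C and −0.13 ± 0.031 in Kelly) and large with shAhR-2 (−1.58 ± 0.034 and −0.85 ± 0.032). The BE2C shAhR-1 call of FARSB was lost without pLKO-GFP library 1 (−0.08) or 3 (−0.07), or without shAhR-1 library 2 (−0.07). It was also lost with a mean CPM of at least 1 (−0.07).

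YARS1, the tyrosyl enzyme, had 171, 166 and 161 CPM with shAhR-1, 106, 101 and 97.2 CPM with shAhR-2 and 185, 172 and 178 CPM with pLKO-GFP in BE2C and 88.6, 85.5 and 94.04 CPM in the libraries labelled shAhR-1, 86.9, 84.9 and 78.8 CPM with shAhR-2 and 156, 146 and 151 CPM with pLKO-GFP in Kelly. The changes were −0.10 ± 0.037 with shAhR-1 and −0.81 ± 0.037 with shAhR-2 in BE2C, and −0.76 ± 0.038 and −0.85 ± 0.038 in Kelly. Without BE2C pLKO-GFP library 1 (−0.08) or shAhR-1 library 3 (−0.09), the BE2C shAhR-1 call of YARS1 was lost. TARS1, the threonyl enzyme, had 321, 328 and 319.5 CPM with shAhR-1, 220.1, 219 and 223 CPM with shAhR-2 and 389, 396 and 395 CPM with pLKO-GFP in BE2C and 231, 247 and 242 CPM in the libraries labelled shAhR-1, 264, 266 and 263 CPM with shAhR-2 and 313, 313 and 314 CPM with pLKO-GFP in Kelly, and changed by −0.28 ± 0.028, −0.83 ± 0.028, −0.38 ± 0.029 and −0.25 ± 0.028 in the same order. RARS1, the arginyl enzyme, had 119.9, 125 and 123 CPM with shAhR-1, 111, 98.8 and 111 CPM with shAhR-2 and 140.1, 137 and 138 CPM with pLKO-GFP in BE2C and 93.9, 102 and 104 CPM in the libraries labelled shAhR-1, 101, 103 and 106 CPM with shAhR-2 and 131, 134 and 126 CPM with pLKO-GFP in Kelly. Its 4 changes were all between −0.39 and −0.17, the narrowest span of the 5.

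Among the other synthetases, the largest shAhR-2 falls were those of CARS1 (cysteinyl, −1.51 ± 0.055 in BE2C and −1.61 ± 0.076 in Kelly) and AARS1 (alanyl, −1.26 ± 0.042 and −1.66 ± 0.034). CARS1 averaged 15.3 ± 0.638 CPM with shAhR-2 and 43.6 ± 0.2896 CPM with pLKO-GFP in BE2C (SD, n = 3 each). Kelly had 3 synthetases higher with shAhR-2, namely EPRS1, the glutamyl-prolyl enzyme (0.20 ± 0.026), HARS1, the histidyl enzyme (0.22 ± 0.036), and SARS1, the seryl enzyme (0.15 ± 0.029). EPRS1 averaged 699 ± 9.28 CPM with shAhR-2 and 609 ± 11.9 CPM with pLKO-GFP in Kelly (SD, n = 3 each), while in BE2C it fell (−1.08 ± 0.028). The largest rise of a synthetase with shAhR-1 in BE2C was that of GARS1, the glycyl enzyme (0.45 ± 0.029), and it was also higher in the Kelly libraries labelled shAhR-1 (0.21 ± 0.029).

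**Figure D4:**
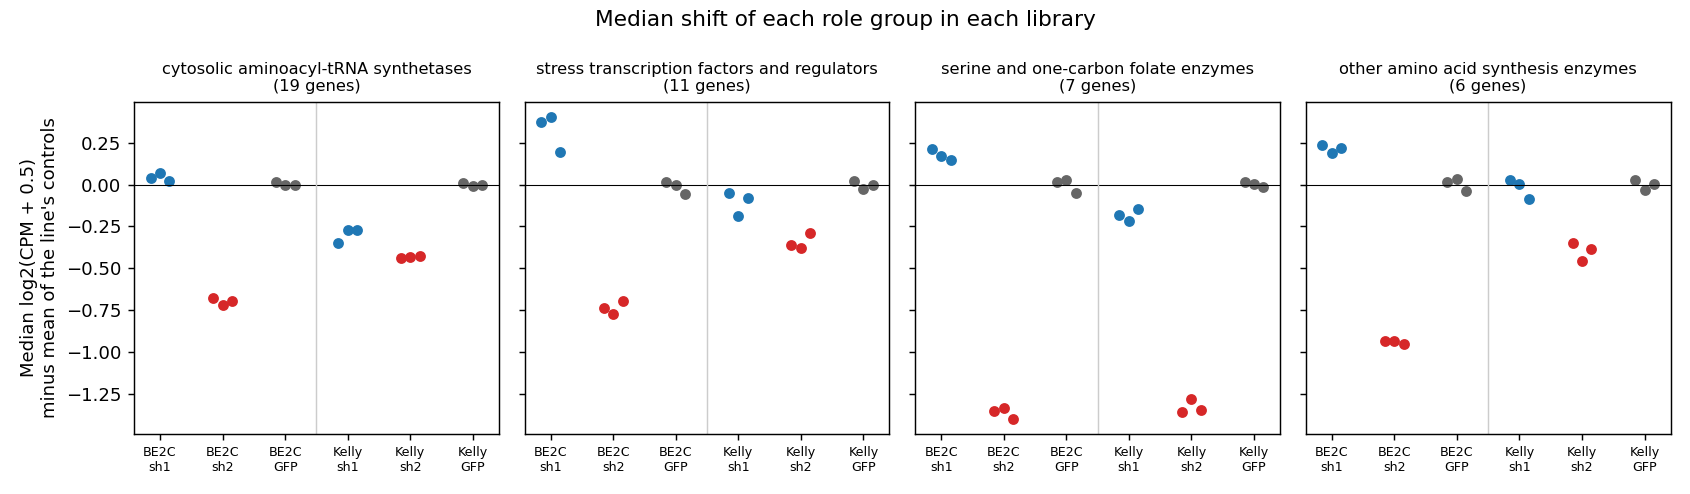
Median over the genes of each role group of log2(CPM + 0.5) minus the mean of the control libraries of the same line, in each library (points), for the 4 role groups (panels), in the order shAhR-1 (sh1), shAhR-2 (sh2) and pLKO-GFP (GFP) within each line. The serine and one-carbon enzymes with shAhR-2 sit between −1.399 and −1.283 in both lines, and the synthetases between −0.72 and −0.677 in BE2C and −0.438 and −0.424 in Kelly.

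Set directly against each other in BE2C, shAhR-1 gave higher levels than shAhR-2 for 41 of the 43 genes, against 35.9% of all genes, and a lower level for 1, VLDLR (−0.23 ± 0.077), against 36.5%, so that 72.4% of all genes were called. The median difference was 0.97. CTH was not called. The largest differences were those of MTHFD1L (2.59 ± 0.053), CHAC1 (2.39 ± 0.17) and SESN2 (2.13 ± 0.19). Leaving out shAhR-1 library 3 or shAhR-2 library 1 removed the VLDLR call (−0.13 and −0.17). In Kelly the libraries labelled shAhR-1 were higher than shAhR-2 for 26 genes and lower for 13 (39.3% and 38.2% of all genes, 77.4% in all), with a median of 0.46. The genes lower there were led by SHMT2 (−1.14 ± 0.040), TRIB3 (−1.09 ± 0.075) and DDIT3 (−0.83 ± 0.15), and the higher ones by MTHFD1L (2.17 ± 0.043), SESN2 (1.86 ± 0.14) and PHGDH (1.804 ± 0.038).

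The lines differed in their response to both hairpins. For shAhR-2 the log2 effect in BE2C minus that in Kelly was below 0 for 27 of 43 genes and above 0 for 5 (25.8% and 28.8% of all 17136 genes, 54.7% in all), with a median of −0.43. The most negative were STC2 (−1.34 ± 0.12, adjusted p = 4.90e-13), EPRS1 (−1.29 ± 0.038, adjusted p = 1.87e-31) and TRIB3 (−1.25 ± 0.11, adjusted p = 3.94e-14). These were among the 6 genes that fell with shAhR-2 in BE2C and rose in Kelly, together with HARS1, SARS1 and DDIT3 (5.54% of all genes). The 5 positive differences were those of PSPH (0.61 ± 0.082), AARS1 (0.38 ± 0.058), MARS1 (0.37 ± 0.058), PHGDH (0.35 ± 0.052) and VARS1 (0.31 ± 0.045), which fell further in Kelly. For ATF4 the difference was 0.09 ± 0.044 and was not called.

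For shAhR-1 the BE2C effect minus the Kelly effect was above 0 for 29 genes and below 0 for 2 (17.5% and 18.2% of all genes, 35.7% in all), with a median of 0.35. The largest were those of STC2 (1.10 ± 0.12), ALDH1L2 (0.91 ± 0.068) and CHAC1 (0.85 ± 0.23), and the 2 negative ones those of ALDH18A1 (−0.33 ± 0.046) and KARS1 (−0.13 ± 0.043), the lysyl enzyme. The KARS1 call was lost, at −0.11, without Kelly pLKO-GFP library 2 or library 3 labelled shAhR-1. The 9 genes that rose with shAhR-1 in BE2C and fell in the Kelly libraries with that label were CARS1, IARS1, SARS1, WARS1, PSPH, ALDH1L2, PYCR1, CBS and STC2 (2.66% of all genes). No gene did the reverse (2.9% of all genes). In 6 of the 9 (IARS1, WARS1, PSPH, ALDH1L2, CBS and STC2), 1 of the 2 calls was lost under at least 1 alternative. Because AHR in the Kelly libraries labelled shAhR-1 overlapped the controls, this difference between lines cannot be told apart from a difference in what the hairpin did to AHR.

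**Figure D5:**
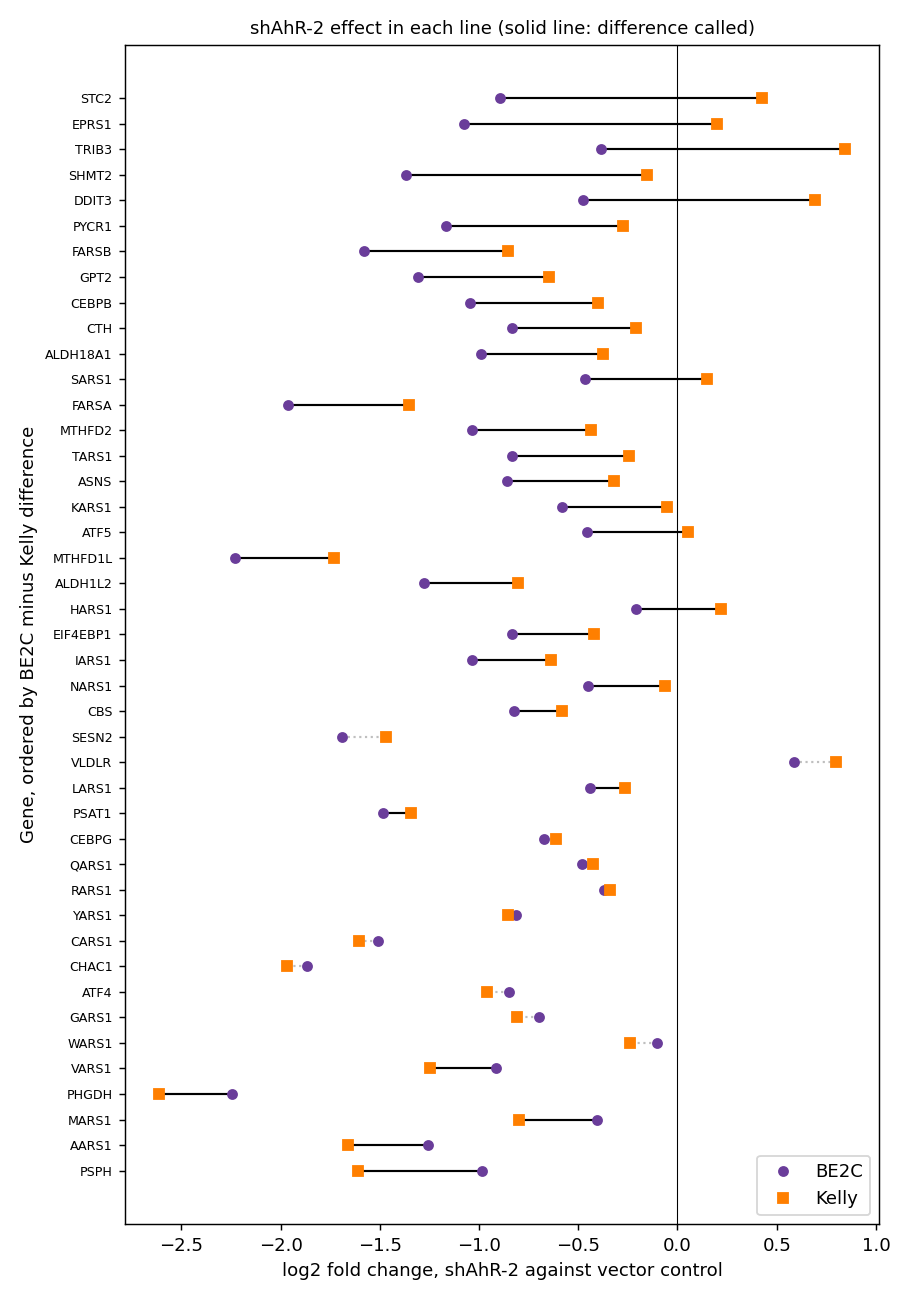
Log2 fold change with shAhR-2 against pLKO-GFP in BE2C (circles) and Kelly (squares) for the 43 tested genes (rows), ordered by the BE2C minus Kelly difference. Solid connectors mark a called difference between lines and dotted ones a difference that was not called. STC2, EPRS1, TRIB3, DDIT3, SARS1 and HARS1 lie below 0 in BE2C and above 0 in Kelly.

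In the control libraries themselves, 32 of the 43 genes were higher in BE2C than in Kelly and 8 were lower (37.2% and 39.0% of all 17136 genes, 76.2% in all), with a median log2 difference of 0.40. CPM in this paragraph were scaled over all 18 libraries together, so they differ slightly from the values above, which were scaled within a line. DDIT3 averaged 18.96 CPM in BE2C and 3.88 CPM in Kelly (2.28 ± 0.11). PSAT1 averaged 247 and 67.95 CPM in the same order (1.86 ± 0.034), and WARS1, the tryptophanyl enzyme, 73.02 and 23.2 CPM (1.65 ± 0.061). On the other side stood QARS1, the glutaminyl enzyme, with 107 CPM in BE2C and 237 CPM in Kelly (−1.15 ± 0.032). SESN2 (−0.94 ± 0.15) and VARS1, the valyl enzyme (−0.49 ± 0.031), were also lower in BE2C. ATF4 itself was slightly lower in BE2C (−0.23 ± 0.031).

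Related genes outside the 44 were taken from 6 lists. Their counts are to be read against all genes tested, of which 37.2% fell and 38.0% rose with shAhR-2 in BE2C and 38.2% fell and 37.2% rose in Kelly, and with shAhR-1 27.1% fell and 25.2% rose in BE2C and 31.0% fell and 29.6% rose in Kelly. Of 16 tested mitochondrial synthetases, 11 fell and 1 rose with shAhR-2 in BE2C and 10 fell and 3 rose in Kelly, with medians of −0.50 and −0.21. With shAhR-1, 5 fell and 1 rose in BE2C, a share of falls near that of all genes, and 7 fell and 1 rose in Kelly. IARS2, the mitochondrial isoleucyl enzyme (−0.72 ± 0.032 in BE2C and −0.46 ± 0.031 in Kelly with shAhR-2), and EARS2, the mitochondrial glutamyl enzyme (−0.96 ± 0.043 and −0.32 ± 0.038), were lower in all 4 contrasts. EEF1E1 and AIMP2 encode scaffold proteins of the multi-synthetase complex. EEF1E1 (−1.08 in BE2C and −0.58 in Kelly with shAhR-2) and AIMP2 (−0.28 and −0.14) fell in all 4 contrasts. The Kelly shAhR-2 call of AIMP2 was lost without pLKO-GFP library 1 (−0.12) or 3 (−0.12) or shAhR-2 library 1 (−0.08). That call was also lost with a mean CPM of at least 1 (−0.11) or DESeq2 (−0.12).

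Upstream of ATF4, of 13 genes for eIF2 alpha kinases, phosphatase subunits and the exchange factor eIF2B, 9 fell and 0 rose with shAhR-2 in BE2C and 7 fell and 3 rose in Kelly, with medians of −0.34 and −0.20. EIF2B2, a subunit of the exchange factor, fell in all 4 contrasts (−1.46 ± 0.064 in BE2C and −1.04 ± 0.070 in Kelly with shAhR-2), as did EIF2AK2, the kinase PKR (−0.66 ± 0.038 and −0.33 ± 0.034). Of 10 tested other folate and glycine enzymes, 7 fell and 1 rose with shAhR-2 in BE2C and 6 fell and 0 rose in Kelly, with medians of −0.82 and −0.49. MTHFD1, the cytosolic trifunctional folate enzyme, fell with shAhR-2 (−1.19 ± 0.031 in BE2C and −0.56 ± 0.030 in Kelly), as did SHMT1, the cytosolic counterpart of SHMT2 (−1.26 ± 0.089 and −1.51 ± 0.080). DLD, a subunit of the glycine cleavage system, was lower in all 4 contrasts too. Of the other amino acid enzymes, 10 of 13 tested fell with shAhR-2 in BE2C and 9 of 14 in Kelly (medians −0.77 and −0.43), with BCAT2, ASL and GLUL lower in all 4 contrasts. Of 15 other ATF4 targets, 9 fell and 4 rose with shAhR-2 in each line (medians −0.31 and −0.23), with SLC7A1, SLC1A5 and LONP1 lower in all 4. The BE2C shAhR-1 call of LONP1 was lost without pLKO-GFP library 2 (−0.07) or shAhR-1 library 1 (−0.09). That of ASL was lost without pLKO-GFP library 1 (−0.22) or 3 (−0.13) or shAhR-1 library 2 (−0.23) or 3 (−0.18). The ASL call was also lost with a mean CPM of at least 1 (−0.19) or DESeq2 (−0.21).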

How the data were processed

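The authors deposited raw counts per gene in 2 tables, 1 for each line. RNA came from the miRNeasy kit, and ribosomal RNA was depleted in library preparation (HyperPrep with RiboErase), per the labels' protocols. The tools named are STAR 2.7.9a and CASAVA 1.8.2 and the build is GRCh38.p7, per the submitters' processing notes. The sources used here give no counting tool, annotation or strand setting. Of counts between 1 and 20 in a library, 68.3% to 72.5% were even, so mates may have been counted separately, and halved counts were tried.

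The 9 libraries of a line were fitted together in edgeR 4.0.16 (filterByExpr, TMM, glmQLFit, glmQLFTest), with Benjamini-Hochberg adjustment over all genes tested. Differences between lines came from 1 fit of all 18 libraries. SE values are the fold change divided by the square root of F. CPM values use TMM library sizes, are not scaled to gene length and are compared within a gene only. Alternatives were RLE size factors, other filters, a replicate block, halved counts, no mitochondrial genes, fits of only the groups compared, leaving out each library and DESeq2 1.42.0. The edgeR fit was also run on simulated counts. Far fewer genes changed in them than were called here, so that run gives no error rates for these data.

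The 44 genes, the other lists and the tests were chosen with earlier results of these data known. Values in every library were given for genes called with the same sign in all 4 contrasts, for up to 4 per line called with opposite signs by the hairpins, for the 2 largest changes of each sign per contrast, and for ATF4 and DDIT3. The 3 largest of each sign were named for each line difference and the controls. From each other list up to 3 genes called with the same sign in all 4 contrasts were named, apart from results that are not reported here. Gene positions are from GENCODE release 29, matched by gene identifier, and promoters from RefSeq GRCh38.p14. R 4.3.3, Python 3.11.15, pandas 2.3.3, numpy 2.4.6, scipy 1.17.1 and matplotlib 3.10.9 were used.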

Additional observations from a re-analysis of the deposited data

Results flagged for a closer look

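These genes responded differently in BE2C and Kelly, by a test of the difference itself in edgeR (BE2C effect minus Kelly effect, log2 ± SE). With shAhR-2, STC2 differed by −1.34 ± 0.12, EPRS1 by −1.29 ± 0.038 and TRIB3 by −1.25 ± 0.11, each falling in BE2C and rising in Kelly. PSPH differed by 0.61 ± 0.082, AARS1 by 0.38 ± 0.058 and MARS1 by 0.37 ± 0.058, each falling further in Kelly. With shAhR-1, STC2 differed by 1.10 ± 0.12, ALDH1L2 by 0.91 ± 0.068 and CHAC1 by 0.85 ± 0.23. ALDH18A1 differed by −0.33 ± 0.046 and KARS1 by −0.13 ± 0.043, and the KARS1 call was lost, at −0.11, without Kelly pLKO-GFP library 2 or library 3 labelled shAhR-1. AHR lay within the control range in the Kelly libraries labelled shAhR-1.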

How the results depend on the processing

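The counts of the 43 genes called in each comparison stayed within 1.5 times under RLE size factors, other filters, halved counts, no mitochondrial genes, fits of only the groups compared and DESeq2, except for the shAhR-1 line difference, where 2 genes were below 0 and 3 with RLE size factors, a mean CPM of at least 1 or DESeq2. Leaving out single libraries gave 0 to 1 genes lower with shAhR-1 than shAhR-2 in BE2C, and 1 to 2 genes below 0 in the shAhR-1 line difference. Single genes were followed for the 43 genes within each line, for the genes named in the differences between lines by rule and for the named genes outside the 44. Of 333 called pairs of gene and comparison among these, 26 lost the call under at least 1 alternative, and none reversed. The values that changed sign were all of genes not called. Leaving out 1 library gave −0.0548 to 0.0093 for AARS1, −0.0295 to 0.0031 for QARS1, −0.0061 to 0.0708 for EIF4EBP1 and −0.1969 to 0.1323 for ATF3 in BE2C with shAhR-1. It gave −0.263 to 0.0146 for DDIT3 in the Kelly libraries labelled shAhR-1 and −0.046 to 0.1393 for ATF5 with shAhR-2 in Kelly. Between the Kelly hairpins it gave −0.0243 to 0.0112 for HARS1, −0.0112 to 0.0544 for MTHFD2 and −0.0308 to 0.1414 for WARS1, and MTHFD2 was at −0.0028 with RLE size factors, −0.0015 with DESeq2 and −0.0000 with the CPM minimum. The cause was not tested.

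The replicate numbers did not pair the libraries, since deviations of same-numbered libraries correlated at −0.0191 to 0.0257. With the replicate number as a block, 33 and 43 genes were called in BE2C with shAhR-1 and shAhR-2, 39 and 38 in Kelly, 42 and 39 between the hairpins of BE2C and Kelly, 30 and 31 for the line differences and 39 between the controls. At these depths genes with few counts, such as ASNS, CHAC1, SESN2 and DDIT3 in Kelly, had the widest errors, and AHR had too few counts to be tested in BE2C.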

Other observations

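The following genes of the list of other ATF4 targets were picked after their values were seen. SLC7A11, which exchanges glutamate for cystine, averaged 2.36 CPM with shAhR-2 and 18.8 CPM with pLKO-GFP in BE2C (−2.99 ± 0.11). In Kelly it averaged 0.348 CPM with shAhR-2 (−5.63 ± 0.17) and 5.01 CPM in the libraries labelled shAhR-1 (−1.79 ± 0.11), against 17.3 CPM with pLKO-GFP. In BE2C with shAhR-1 it was not called (−0.12 ± 0.085). Other genes of that list rose with shAhR-2. NDRG1, a stress and differentiation gene, rose by 2.51 ± 0.13 in BE2C and 2.78 ± 0.086 in Kelly with shAhR-2, and was lower with shAhR-1 (−1.17 ± 0.18 and −1.39 ± 0.12). SQSTM1, the autophagy receptor p62, rose with shAhR-2 by 1.30 ± 0.051 in BE2C and 1.03 ± 0.060 in Kelly. ATF3, a stress transcription factor, rose with shAhR-2 in BE2C (1.03 ± 0.12) and fell in Kelly (−0.29 ± 0.086). In the Kelly libraries labelled shAhR-1 ATF3 rose (0.48 ± 0.083), and with shAhR-1 in BE2C it was not called (−0.05 ± 0.13).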
